A study of Danio rerio with 6 samples.

Results

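malat1 is the zebrafish gene for a long non-coding RNA of the cell nucleus, and it is followed here as the small RNA fragments that were sequenced from it. It is 1 row of the lincRNA table (long intergenic non-coding RNA), transcript ENSDART00000163316.2, out of 1315 entries (1086 of them with any count). The row was picked by its transcript identifier and not by a threshold on its values. The study had already called malat1 lower in F1-γ from these same libraries, so its direction was known beforehand. The 6 libraries were made from whole AB wild type zebrafish embryos at 5.5 h post fertilization (hpf), the stage of 50% epiboly, each from a pool of 100 embryos. The F1-γ embryos (3 libraries) had parents that were exposed at 6 months of age, during gametogenesis, to gamma radiation from a cobalt source at 8.7 mGy/h for 27 days, which adds up to 5.2 Gy, and the mating followed 1 year later. The F1-C embryos (3 libraries) had parents that were not exposed and were kept separately under similar conditions. Neither group of embryos was irradiated itself, and the parents of each group were kept as 3 replicates of 30 males and 30 females.

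MALAT1 is among the most abundant long non-coding RNAs of mammalian cells. It stays in the nucleus, at the speckles where splicing factors are stored, and in human cells it binds serine/arginine-rich (SR) splicing factors. The transcript is not polyadenylated in the usual way. In human and mouse, RNase P cuts it at its 3′ end, and the new end is protected by a triple helix that an A-rich tract forms with a pair of U-rich motifs. The small nuclear RNAs (snRNAs) are another nuclear RNA class of these libraries, and they form the core of the spliceosome. U1 and U2 recognize the 5′ splice site and the branch point, and U4, U5 and U6 join them before the first step of splicing. The study also assigned reads to small nucleolar and small Cajal body RNAs, and it reported no group difference for them. Those nuclear classes were not examined here. A read of 18 to 36 nt from malat1 or from an snRNA is a fragment of a longer RNA, so the values below are amounts of fragments. In whole embryos, fewer cells with the RNA and less RNA per cell cannot be told apart.

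The lincRNA table places malat1 on the minus strand of chromosome 14 at chr14:46643943-46651420 (GRCz10, the build named in the methods). The span equals the 7477 bases of its sequence, so that the entry is a single exon with no intron, annotated as a lincRNA. The 3′ end is shown because it holds the part of the RNA for which the human transcript is best known. It is given as DNA letters from base 7378 to base 7477, 5′ to 3′, with the U-rich runs and the A-rich tract in capitals.
malat1 3′ end: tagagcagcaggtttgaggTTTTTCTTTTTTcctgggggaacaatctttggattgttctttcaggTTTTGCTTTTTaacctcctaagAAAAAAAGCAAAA
The last 100 bases thus held both U-rich runs (bases 7397 to 7408 and 7443 to 7453) and the A-rich tract (bases 7465 to 7477), which ends the transcript. A U-rich run was taken as at least 4 T, then 1 or 2 bases C or G, then at least 4 T, and an A-rich tract as at least 5 A, then GC, then at least 4 A, both searched on the transcribed strand only. malat1 held 12 of them, 2 of which were in the last 100 bases. In the sequences of 9 other lincRNAs, as far as the supplement of the study prints them (8672 bases in all), 1 sequence held 4 such runs and none held the A-rich tract. The printed part can be shorter than the entry. For the lincRNA entry ENSDART00000151198.3, 762 bases were aligned, beside a span of 890. A tract outside the printed parts would be missed. A match is a description of letters and not a measured structure. malat1 was 38.1% GC, and it held 11 runs of 8 or more A, the longest of 17 bases.

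**Figure D1:**
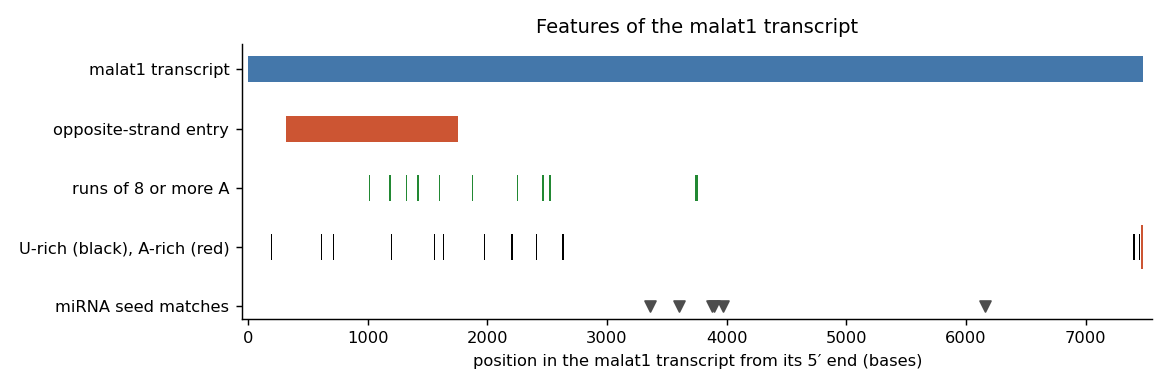
Features along the malat1 transcript, by distance from its 5′ end in bases: the transcript, the span of the opposite-strand entry, runs of 8 or more A, U-rich and A-rich motifs, and matches to miRNA seeds. The opposite-strand entry covers bases 321 to 1753, and 2 of the 12 U-rich runs and the A-rich tract lie at the 3′ end.

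Fragments of malat1 were fewer in every F1-γ library than in any F1-C library. The unscaled count was 258, 343 and 255 in the F1-C libraries, against 103, 122 and 77 in those of F1-γ. Even the lowest F1-C library, at 255, was far above the highest F1-γ library, at 122. The means were 285.3 ± 50.0 in F1-C and 100.7 ± 22.6 in F1-γ (SD, n = 3 each), a 2.83-fold lower count. The lincRNA totals were 108976, 129490 and 96906 counts in F1-C, against 131439, 124348 and 127565 in F1-γ, so that the F1-γ libraries had fewer malat1 fragments in totals of about the same size. These totals overlapped and were 1.14-fold higher in F1-γ in the mean. The study reported fewer reads assigned to lincRNAs in F1-γ, by its own assignment of mapped reads to classes. That is not the measure used here, which is an unscaled total of the deposited lincRNA entries. The unscaled totals of miRNAs and piRNA clusters were also higher in F1-γ in the mean, 1.38-fold and 1.35-fold. Of the 125 lincRNAs with more than 100 counts in at least 3 libraries, 6 (4.8%) had every F1-γ count below every F1-C count.

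The direction did not change when malat1 was given relative to the rest of its own table. In counts per 1000000 lincRNA counts (CPM by the lincRNA total), malat1 was at 2367, 2649 and 2631 in F1-C and at 783.6, 981.1 and 603.6 in F1-γ. F1-γ replicate 2 was the highest of its group and was still well below F1-C replicate 1, the lowest of the controls. The means were 2549 ± 158 and 789.5 ± 189 (SD, n = 3 each), which is 3.23-fold lower in F1-γ. Counting error was small beside this gap: the upper limit of the 95% Wilson interval was at most 1171 CPM in F1-γ, and the lower limit was at least 2096 in F1-C. These intervals cover counting error only. On this scale 14 of the 125 lincRNAs (11.2%) were lower in every F1-γ library.

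The lincRNA total depended on ENSDART00000151198.3 (si:dkey-153m14.1, chromosome 20), the most abundant entry. Although the table lists it as a lincRNA, the sequence that the supplement gives for it reads like the 3′ part of a large-subunit ribosomal RNA. This was recognised by eye and not aligned to an rRNA reference, and its counts cannot be told apart from rRNA fragments here. The study lists a human lincRNA match for this entry. The study reported no group difference in the reads that it assigned to rRNA. Whether those included reads of this entry is not stated. ENSDART00000151198.3 held 16.3%, 19.8% and 15.1% of the lincRNA counts in F1-C, against 1.58%, 1.08% and 0.660% in F1-γ. The share of this single entry was thus far higher in all F1-C libraries, which lowers the share left for the other lincRNAs there. With it left out of the total, malat1 was at 2827, 3303 and 3100 CPM in F1-C and at 796.2, 991.9 and 607.6 in F1-γ. The F1-C libraries moved up and the F1-γ libraries hardly moved, and the difference was 3.85-fold (3076 ± 239 against 798.6 ± 192, SD, n = 3 each). Relative to ENSDART00000151198.3 itself, malat1 was higher in F1-γ, at 4.95%, 9.04% and 9.14% of its count against 1.46%, 1.34% and 1.74% in F1-C.

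A scale from outside the lincRNA table gave a somewhat larger difference. By the miRNA total, malat1 was at 366.0, 312.0 and 218.5 CPM in F1-C and at 70.35, 88.19 and 61.81 in F1-γ. The F1-C libraries spread more widely on this scale than by the lincRNA total, and the groups did not overlap. The means were 298.8 ± 74.6 and 73.4 ± 13.5 (SD, n = 3 each), 4.07-fold lower in F1-γ. The miRNA totals themselves did not overlap between the groups, with 704953 to 1167284 counts in F1-C and 1245801 to 1464138 in F1-γ. On this scale 11 of the 125 lincRNAs (8.8%) were lower in every F1-γ library. With the miR-430 family, the main miRNAs of this stage, left out of the miRNA total, malat1 was 4.11-fold lower.

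By the total on piRNA clusters, malat1 was 3.79-fold lower in F1-γ (533.2 ± 172 against 140.8 ± 53.1 CPM, SD, n = 3 each). The piRNA cluster totals themselves did not overlap either, with 469295 to 604146 counts in F1-C and 611701 to 810056 in F1-γ. By the sum of the 4 tables malat1 was 3.81-fold lower (171.8 ± 33.2 against 45.1 ± 11.3 CPM, SD, n = 3 each). On these 6 scales, from the unscaled count to the miRNA total, the difference was 2.83-fold to 4.07-fold and the groups did not overlap. Each gave p = 0.1 in a two-sided exact permutation test, the smallest p that 3 against 3 libraries can give. Adjusted over the 7 scales compared, with the snRNA scale below as the last, it was 0.117.

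**Figure D2:**
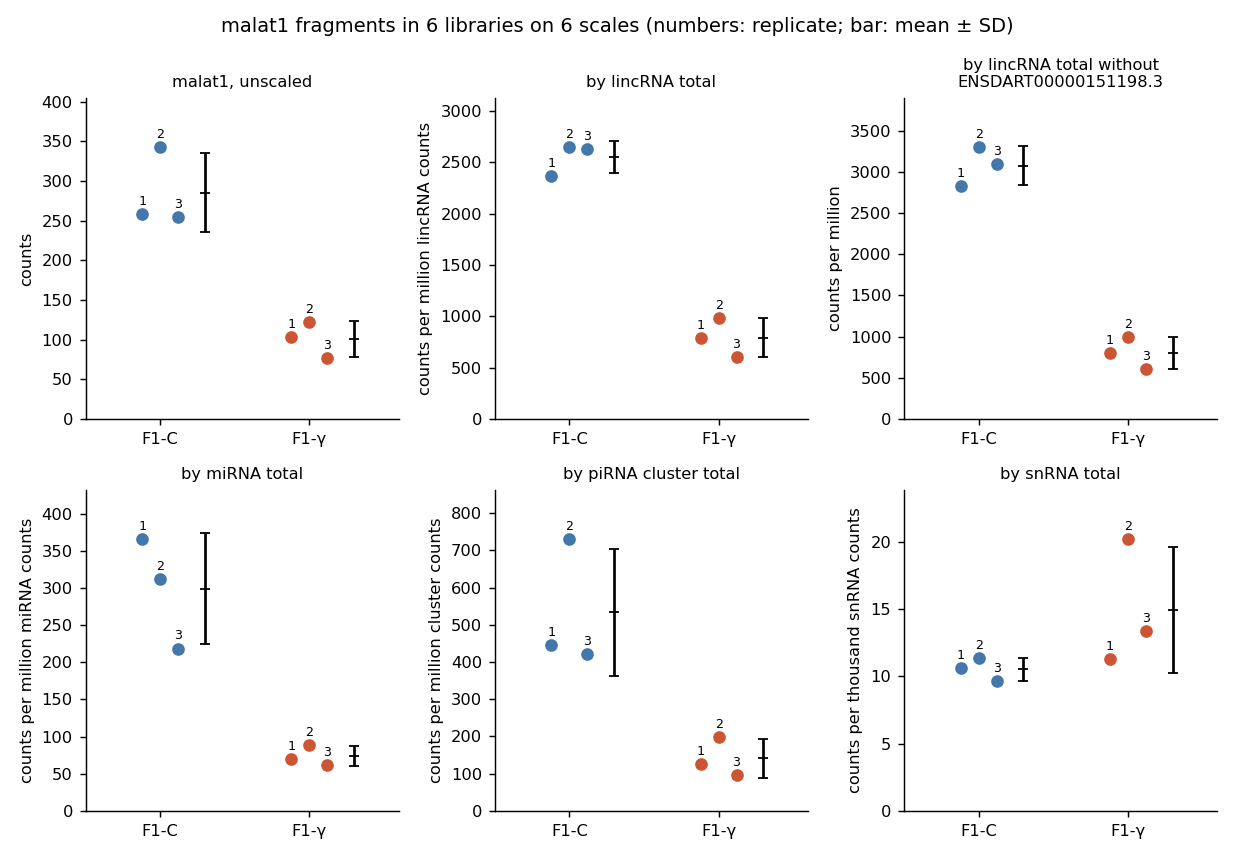
malat1 in each library (points, numbered by replicate) on 6 scales, with mean ± SD (n = 3 per group) as a bar; each vertical axis starts at 0 and is in counts, or CPM or counts per 1000 of the total named. On the first 5 panels every F1-γ point is below every F1-C point, from 2.83-fold to 4.07-fold in the means, and on the snRNA scale the groups overlap (10.5 ± 0.860 against 14.96 ± 4.68).

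The count test over all lincRNAs called malat1 lower in F1-γ, as the study had done on these same libraries. The call is therefore no independent evidence. With library sizes corrected by TMM (trimmed mean of M-values), which sets the libraries to the bulk of the lincRNAs, malat1 was at 2809, 3353 and 3213 CPM in F1-C, against 744.7, 932.6 and 580.1 CPM in F1-γ. The groups were again wide apart, with means of 3125 ± 283 and 752.4 ± 176 CPM (SD, n = 3 each). malat1 fell by 2.05 on the log2 scale (SE 0.18, adjusted p = 2.99e-05, quasi-likelihood test of edgeR, Benjamini-Hochberg adjustment over 125 lincRNAs). It passed the filter with 5 of 6 libraries above 100 counts. F1-γ replicate 3, at 77, was the library below it.

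For a call, the adjusted p had to be under 0.05 and the log2 fold change beyond 0.6 in either direction. By this rule 14 of 125 lincRNAs (11.2%) were lower and 4 were higher in F1-γ. malat1 had the most negative log2 fold change but for ENSDART00000151198.3 at -4.31 (SE 0.30) and ENSDART00000171481.2 (si:dkey-23f9.15) at -2.28 (SE 0.36), and ENSDART00000152334.2 (si:ch211-202n12.4) came next at -1.41 (SE 0.16). The median lincRNA was at 0.02, so that the difference of malat1 from it was -2.08. With library totals in place of TMM the same test gave 8 lower and 43 higher, and the median of all lincRNAs moved to 0.41. malat1 was still lower then, at -1.67.

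With the miRNA totals as library sizes, 8 of 125 lincRNAs (6.4%) were called lower and 2 higher. malat1 was among the lower, and its log2 fold change of -2.02 (SE 0.34, adjusted p = 2.74e-07, edgeR) was close to that under TMM, with a larger error. The 3 most negative entries came in the same order, with ENSDART00000151198.3 at -4.31, ENSDART00000171481.2 at -2.22 and malat1 after them. The median lincRNA was at 0.07 on this scale.

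**Figure D3:**
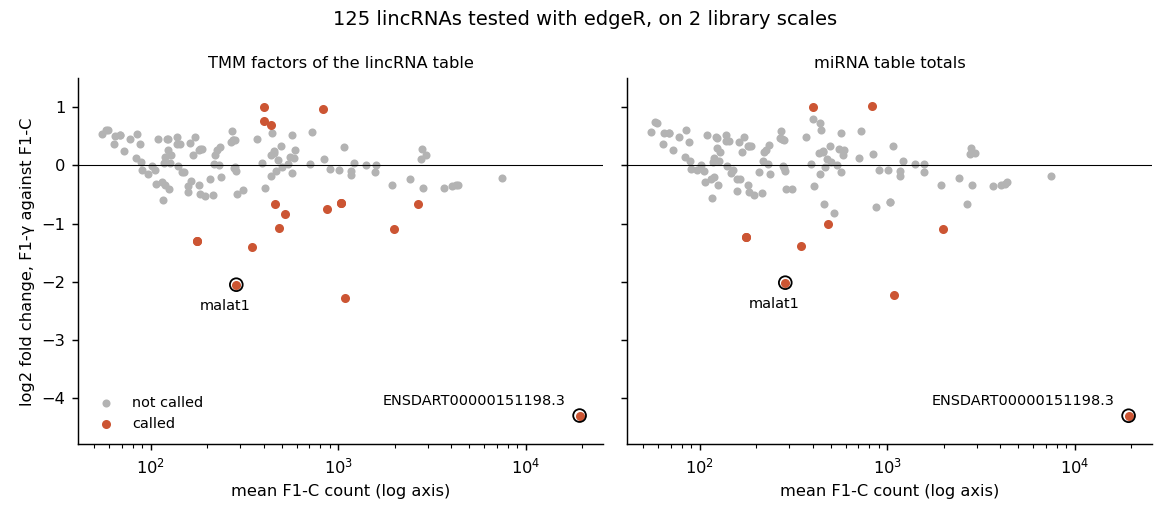
Log2 fold change of F1-γ against F1-C (vertical axis) by mean F1-C count (horizontal, log axis) for 125 lincRNAs, with the TMM factors of the lincRNA table on the left and miRNA totals on the right. Called lincRNAs are red, and malat1 lies at -2.05 on the left and -2.02 on the right, below nearly all lincRNAs of similar count.

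The fragments of snRNAs, the nuclear class compared here, were lower in every F1-γ library as well. The snRNA total was 24212, 30257 and 26487 counts in F1-C, against 9138, 6034 and 5756 in F1-γ. In CPM by the miRNA total these were 34346, 27519 and 22691 in F1-C, against 6241, 4362 and 4620 in F1-γ. The groups did not overlap on either scale. The means by the miRNA total were 28185 ± 5856 and 5074 ± 1019 (SD, n = 3 each), 5.55-fold lower in F1-γ (p = 0.1, two-sided exact permutation test), beside 4.07-fold for malat1. All 27 snRNAs with more than 100 counts in at least 3 libraries (100%) were lower in every F1-γ library on this scale. Many of these are copies with identical counts, and with identical entries counted once the total was 5.46-fold lower. Several of the 27 passed the count filter only through F1-C libraries. Without any 1 F1-C library 17 or 18 passed it, against 26 or 27 without any 1 F1-γ library. The 100% was thus partly set by the filter.

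Divided library by library, the ratio of malat1 to the snRNA total did not separate the groups. That total was unlike in make-up between them. Of a mean of 26985 counts in F1-C, 13520 were U1 and 10954 were U2. Of a mean of 6976 counts in F1-γ, 1236 were U1 and 5033 were U2. Per 1000 snRNA counts, malat1 was at 10.66, 11.34 and 9.63 in F1-C and at 11.27, 20.22 and 13.38 in F1-γ. F1-γ replicate 1 lay within the F1-C values, and F1-γ replicates 2 and 3 were above them. The means were 10.5 ± 0.860 and 14.96 ± 4.68 (SD, n = 3 each), 1.42-fold higher in F1-γ, with p = 0.2 in the two-sided exact permutation test of the ratio (0.2 after adjustment over the 7 scales). In edgeR's fit with the snRNA totals as library sizes, malat1 had a log2 fold change of 0.50 (SE 0.29, adjusted p = 0.0832), which did not pass the threshold, while the median of the 125 lincRNAs was at 2.58.

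**Figure D4:**
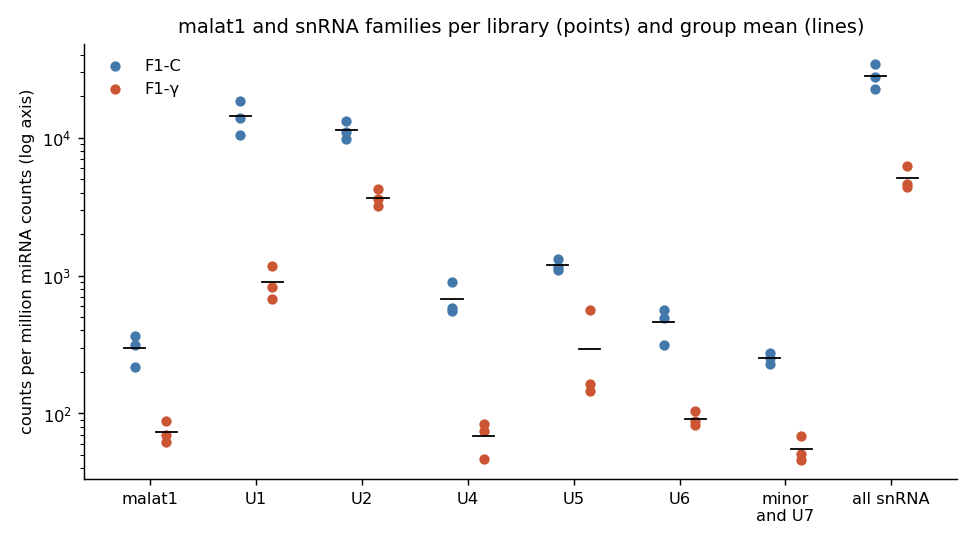
CPM by the miRNA total (log axis) of malat1, of each snRNA family and of all snRNAs in the 3 F1-C and 3 F1-γ libraries (points) with the group mean (lines). Every F1-γ point is below every F1-C point in each column, with 4.07-fold for malat1 between the 3.09-fold of U2 and the 15.99-fold of U1.

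The snRNA families differed in how far they were below the controls. The U1 family, which pairs with the 5′ splice site, was at 18329, 13996 and 10495 CPM by the miRNA total in F1-C and at 1182, 821.1 and 675.9 in F1-γ. The drop was present in all F1-γ libraries and was 15.99-fold in the means. U4, which keeps U6 inactive until the spliceosome is activated, was 9.88-fold lower (677.3 ± 190 against 68.6 ± 19.6, SD, n = 3 each). Of the other families, U6, which takes part in catalysis, was 4.99-fold lower, U5, which holds the exon ends, 4.08-fold (with F1-γ replicate 1 high at 562.8 CPM beside 164.1 and 146.1 in the others), and U2, which pairs with the branch point, 3.09-fold. The U2 total pooled unlike entries. With the miRNA totals in edgeR, U2.3, U2.7, U2.8, U2.12 and U2.14 had log2 fold changes of -0.81. U2.2, U2.4, U2.9, U2.10 and U2.11 were at -3.83 to -2.71. The U5 total was mixed as well. U5.1, U5.2, U5.3 and U5.6 were at -1.85 to -1.56, U5.5 at -3.37 and U5.9 at -4.67. Entries with identical counts were not collapsed within a family. The snRNAs of the minor spliceosome, with U7 of histone mRNA processing, were 4.56-fold lower as a group. By the miRNA total, all 6 groups were lower in every F1-γ library (p = 0.1 each, exact permutation test, 0.1 after adjustment over the 6). In unscaled counts U5 overlapped, with 775, 1267 and 1529 in F1-C against 824, 227 and 182 in F1-γ (p = 0.2, exact permutation test). The other groups did not overlap in unscaled counts.

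malat1 thus lay within the range of the snRNA family totals, of which those of U2 and U5 pooled unlike entries. Its ratio to each total was compared directly. Per 1000 U1 counts, malat1 was at 19.97, 22.29 and 20.81 in F1-C and at 59.54, 107.4 and 91.45 in F1-γ. Per 1000 U4 counts it was at 408.2, 535.9 and 394.7 in F1-C and at 837.4, 1173 and 1328 in F1-γ. In both ratios all F1-γ libraries were above all F1-C libraries, so that U1 and U4 had the larger difference in these libraries (p = 0.1 each, exact permutation test, 0.3 after adjustment over 6 ratios). Neither difference could pass 0.05 with 3 against 3 libraries.

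The ratios of malat1 to the other families overlapped between the groups. Per 1000 U6 counts, malat1 was at 648.2, 631.7 and 691.1 in F1-C and at 677.6, 1061 and 700.0 in F1-γ (p = 0.2, exact permutation test). F1-γ replicate 2 was high in this ratio, and the other F1-γ libraries lay within or just above the F1-C values. Per 1000 U2 counts it was at 27.76, 28.25 and 22.32 in F1-C and at 16.59, 27.80 and 17.11 in F1-γ (p = 0.3, exact permutation test), the only family total for which the mean ratio was lower in F1-γ, 20.5 against 26.1. That total pooled unlike U2 entries, and the U5 total used next was mixed as well. U5 gave 256.8 ± 83.9 and 361.8 ± 213 (SD, n = 3 each, p = 0.5, exact permutation test), with F1-γ replicate 1 below all other libraries at 125, in counts per 1000 U5 counts. For the minor spliceosome and U7 the ratio was 1178 ± 196 and 1386 ± 461 (SD, n = 3 each, p = 0.7, exact permutation test).

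A test within the snRNA table could not show a drop shared by most snRNAs, because TMM centres the table on them. Under TMM, 4 of 27 snRNAs (14.8%) were called lower and 6 higher, all relative to the median snRNA. Without each library in turn 6 to 9 were called lower, but the number tested changed as well. It was 7 of 18 without F1-C replicate 1 and 7 of 17 without F1-C replicate 2 or 3. Without F1-γ replicate 1 it was 9 of 26, and without F1-γ replicate 2 or 3 it was 6 of 27. With the miRNA totals as library sizes, 27 of 27 (100%) were called lower. That share was partly set by the filter, which several snRNAs passed only through F1-C libraries. The log2 fold changes of the 27 ran from -4.67 to -0.81, with a median of -3.35. malat1, at -2.02 on the same scale, was within this range and closer to zero than the median snRNA.

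Among the 125 lincRNAs that passed the count filter, malat1 was near the middle in F1-C and the lowest in F1-γ. These are the best-counted entries, out of 1086 with any count. By mean count it ranked 59 of 125 in F1-C and 125 of 125 in F1-γ. The rank in F1-γ was read among lincRNAs that had passed the count filter, which malat1 had passed through F1-C. Per kb of its span, malat1 had 38.2 ± 6.68 counts in F1-C and 13.5 ± 3.02 in F1-γ (SD, n = 3 each). The median over the 125 was 39.4 in F1-C and 60.1 in F1-γ. Its rank per kb was 64 in F1-C and 99 in F1-γ. The span runs from start to end on the chromosome and includes any introns of the other lincRNAs. malat1 has none, so these ranks do not compare levels per transcript length.

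The lincRNAs with the nearest mean counts in F1-C were not called. ENSDART00000194705.1, also on chromosome 14, had 303, 315 and 233 counts in F1-C, against 391, 357 and 414 in F1-γ. ENSDART00000153691.2 on chromosome 5 had 206, 379 and 277 counts in F1-C, against 373, 297 and 235 in F1-γ. In unscaled counts the first was higher in every F1-γ library and the second overlapped between the groups. After TMM their log2 fold changes were -0.10 (SE 0.12, adjusted p = 0.532, edgeR) for ENSDART00000194705.1 and -0.49 (SE 0.21, adjusted p = 0.0939, edgeR) for ENSDART00000153691.2, and neither was called.

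Some entries of the lincRNA table had a profile over the 6 libraries very like that of malat1. Likeness was the Pearson correlation of log2 CPM across libraries of both groups, and therefore mostly the group difference. The nearest were ENSDART00000151198.3, the most abundant entry (r = 0.985), ENSDART00000153803.3 (si:ch73-112l6.6, r = 0.981) and ENSDART00000142034.2 (si:dkey-163i6.7, r = 0.980). ENSDART00000154396.2 (r = 0.973) and ENSDART00000173530.2 (r = 0.966) followed. Over the 124 other lincRNAs tested the median was -0.14, and 15 were above 0.9. The sizes of the difference were unlike. ENSDART00000153803.3 had 1600, 2014 and 2218 CPM in F1-C, against 838.6, 810.3 and 708.1 CPM in F1-γ, a log2 fold change of -1.30 (SE 0.15), and ENSDART00000142034.2 overlaps it on the opposite strand and had nearly the same counts. ENSDART00000154396.2 was at -0.59 (SE 0.12), short of the fold threshold, and ENSDART00000173530.2 at -0.67 (SE 0.12).

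Another lincRNA entry, ENSDART00000173154.2, lies inside malat1 on the opposite strand at chr14:46649667-46651100, over bases 321 to 1753 of the transcript (19.2% of its length). It was the only other lincRNA entry within 1 Mb. Its counts were 31, 44 and 40 in F1-C, against 13, 25 and 13 in F1-γ, too low for the filter. They were lower in every F1-γ library, and by the miRNA total the difference was 3.16-fold (39.4 ± 4.88 against 12.5 ± 4.92, SD, n = 3 each, p = 0.1, exact permutation test). As a share of the malat1 count they were 12.02%, 12.83% and 15.7% in F1-C, against 12.6%, 20.5% and 16.9% in F1-γ, with overlap between the groups (p = 0.3, exact permutation test).

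The table appeared to count reads of either strand. Of 20 pairs in which a lincRNA entry lies within another on the opposite strand, 15 had counts, and in all 15 the inner entry never exceeded the outer in any library. Several inner entries held few counts, such as ENSDART00000140017.3 with 5 beside 400, and could hardly have exceeded the outer one either way. The 1 pair with counts and an identical span had identical counts in all 6 libraries. The methods of the study also describe the libraries as non-directional. Reads of malat1 and of an antisense RNA in this window can therefore not be told apart. With the counts of this entry taken out, malat1 had 227, 299 and 215 counts in F1-C, against 90, 97 and 64 in F1-γ. The groups stayed apart, and the log2 fold change was -2.11 (SE 0.17, adjusted p = 1.15e-05, edgeR's quasi-likelihood test). This comparison was added after the counts had been seen.

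Fragments came from the window at a lower density than from the rest of malat1 in F1-C. The window had 26.8 ± 4.65 counts per kb and the rest 40.9 ± 7.52 in F1-C, and the values were 11.9 ± 4.83 and 13.8 ± 2.88 in F1-γ (SD, n = 3 each). The window was the less dense stretch in all 3 F1-C libraries and in 2 of 3 F1-γ libraries. Both stretches were lower in every F1-γ library, 2.25-fold in the window and 2.95-fold outside it by unscaled counts. The table gives no position of a read within its entry beyond this window. None of the regions in the piRNA cluster table overlapped malat1, although 3 clusters were on chromosome 14.

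The study linked malat1 to miRNAs that were higher in F1-γ, on the ground that human MALAT1 is reported to bind their human counterparts. It named 4, among others, and these 4 are followed here. They were chosen on these same samples, so their direction here is no independent evidence. dre-let-7g-5p, a member of the let-7 family that promotes differentiation, had 109.9, 128.0 and 124.0 CPM in F1-C, against 336.7, 233.3 and 307.1 in F1-γ. The groups did not overlap, and it rose by 1.25 on the log2 scale (SE 0.22, adjusted p = 0.00627, edgeR's quasi-likelihood test over 122 miRNAs), the opposite direction to malat1. How many of the 122 were called higher was not counted. The other 3 linked miRNAs had fewer than 30 counts in at least 1 library and entered the test only without the low-count filter.

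Without that filter, dre-miR-1-3p, known from muscle, had a log2 fold change of 1.58 (SE 0.30, adjusted p = 1.23e-05, edgeR). dre-miR-21-1-3p, of the miR-21 family that is often raised in tumours and listed by the study as the counterpart of human miR-21-5p, was at 1.34 (SE 0.28, adjusted p = 6.11e-05, edgeR). dre-miR-135c-5p was at 1.096 (SE 0.29, adjusted p = 0.00329, edgeR), and without F1-C replicate 1, the other setting that tested it, it was at 1.06 and not called (adjusted p = 0.0719, edgeR). Each was higher in every F1-γ library than in any F1-C library by the miRNA total. The counts in F1-C replicate 1 were low, at 16 for dre-miR-1-3p, 24 for dre-miR-21-1-3p and 18 for dre-miR-135c-5p. How many of all miRNAs kept the groups apart, as these and dre-let-7g-5p did, was not counted. Whether any of them stands out among the miRNAs can therefore not be told. The 3p arms of the miR-430 family, which clears maternal mRNAs at this stage, served for comparison. The 4 arms listed were tested, and none was called, with log2 fold changes from -0.26 to 0.72. dre-miR-430c-3p, at 0.72 (adjusted p = 0.142, edgeR), was called at 0.86 without F1-γ replicate 1 (adjusted p = 0.0211, edgeR).

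Seeds of 12 human miRNAs (bases 2 to 8, as listed in the supplement of the study) were searched in the malat1 transcript by their reverse complement. The match of let-7g is shown because let-7g-5p was the linked miRNA that passed the test with the filter on. It lies at bases 3592 to 3615 of the transcript, with the 7 bases that pair with the seed GAGGUAG in capitals.
malat1 at the let-7g seed match: tacacgacaccaCTACCTCtactg
In all, 5 of the 12 seeds had a match, 6 matches together, and none was found for the seeds of miR-21-5p, miR-1-3p and miR-135a-5p. malat1 held 0.802 matches per kb and the printed parts of the 9 other lincRNA sequences held 1.15 per kb, so that matches were not denser in malat1. The other matches were of miR-141-3p, miR-150-5p, miR-181b-5p (2 matches) and miR-204-5p. A match says nothing of binding.

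Across settings the fitted change of malat1 was stable with the exception of the snRNA scale. Of 24 alternative fits that tested malat1, 23 called it lower, with log2 fold changes from -2.20 to -1.67 and adjusted p-values from 1.76e-27 to 0.00147. Leaving out each library in turn gave -2.20 to -1.86. The fit with the snRNA totals, at 0.50, was the other one. The median lincRNA ranged from -0.04 to 2.58 under 9 ways of setting the library size. Such a setting shifts all lincRNAs nearly alike, so the distance of malat1 from the median (-2.08 to -2.06) was fixed by construction and is no sign of stability.

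**Figure D5:**
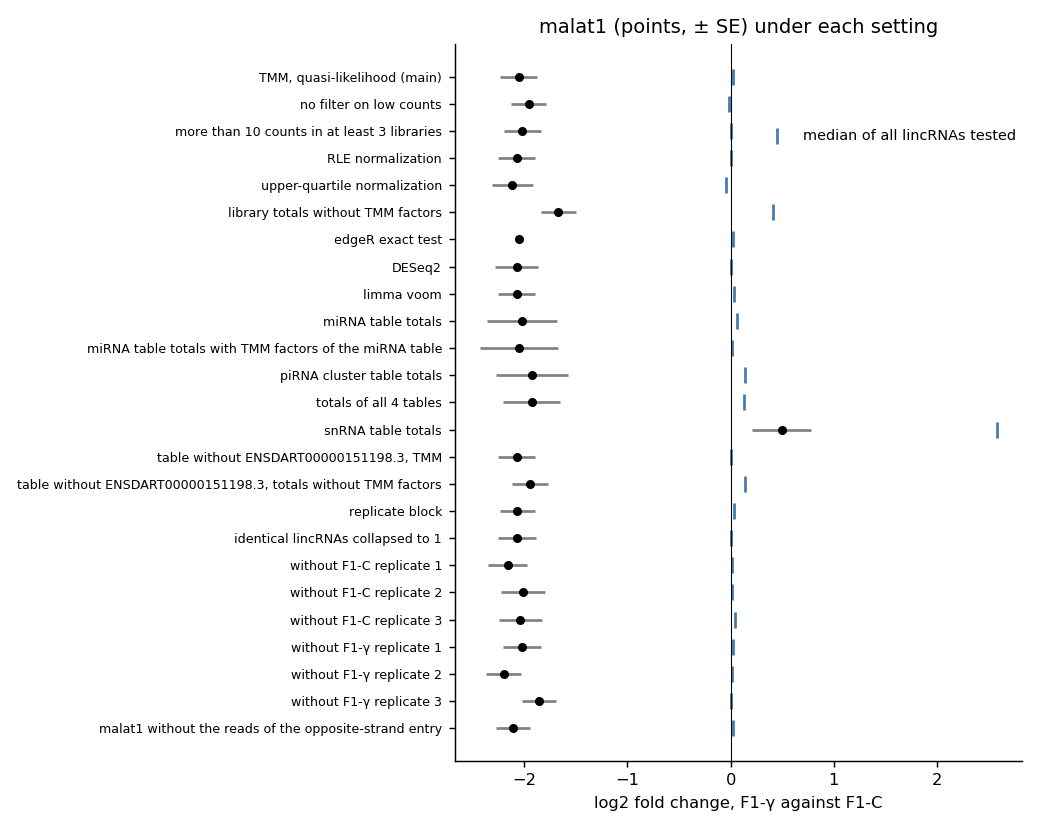
Log2 fold change of malat1, F1-γ against F1-C (horizontal axis, points ± SE; edgeR's exact test gives no SE), under each fit that tested it, with the median of all lincRNAs tested as a blue line. All points but that with snRNA table totals (0.50) are between -2.20 and -1.67, and there the median is at 2.58.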

How the data were processed

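The 6 small RNA libraries, 3 per group, each from 100 embryos, were grouped by their labels. One F1-γ title gives conflicting replicate numbers, and its library was taken as replicate 3. Per the study's methods, the authors trimmed adapters (Trim Galore 0.3.7 per the labels), kept reads of 18 to 36 nt, mapped them to GRCz10 and deposited 4 tables with no scaling. The lincRNA and snRNA tables hold deposited whole counts per entry. The miRNA and piRNA cluster tables hold estimated counts, for which the authors divided reads on several loci among them (as deposited), and which were rounded here to whole numbers for testing. How reads on several loci were counted for lincRNAs and snRNAs is not given in the sources used here. Totals per library were 96906 to 131439 counts for lincRNAs, 5756 to 30257 for snRNAs, 704953 to 1464138 for miRNAs and 469295 to 810056 for piRNA clusters. Replicates differed by more than counting noise (chi-square per degree of freedom 3.91 to 6.95 for lincRNAs).

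lincRNAs and snRNAs with more than 100 counts in at least 3 of 6 libraries, and miRNAs with more than 30 in every library, were tested with edgeR 4.0.16 (R 4.3.3; TMM, quasi-likelihood test, no covariate, Benjamini-Hochberg over all features tested; call at adjusted p below 0.05 and log2 fold change beyond 0.6). Ratios used two-sided exact permutation tests over libraries. CPM are counts per 1000000 of the total named. Log2 CPM used a prior count of 2. Alternatives were other normalizations and library sizes, filters, edgeR's exact test, DESeq2 1.42.0, voom (limma 3.58.1), a replicate block, identical entries collapsed and leaving out each library. Removing the opposite-strand reads and dividing by dre-miR-430a-3p alone were chosen after seeing the data. The transcript, the lists and the named features (malat1, ENSDART00000151198.3, the 5 lincRNAs most correlated with malat1, the neighbours in count and within 1 Mb, snRNA families, the linked miRNAs) were chosen with earlier results of these data known. Sequences came from the supplement of the study. Chromosome positions are as deposited.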

Additional observations from a re-analysis of the deposited data

How the results depend on the processing

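Of the malat1 results, the fit with snRNA totals reversed its direction (log2 fold change 0.497, adjusted p = 0.0832, edgeR), since the snRNAs were lower as well, and the 23 other fits that tested malat1 called it lower. A filter of more than 100 counts in every library left malat1 untested, with 99 lincRNAs tested. The 41 alternatives of the other malat1 scales ran from 0.209 to 0.394 of the F1-C mean. Most of them left out 1 library. That cannot reverse a direction where the groups do not overlap, so only the size of the difference was open there. malat1 per 1000 snRNA counts was 1.17 to 1.59 of the F1-C mean without each library in turn. With dre-miR-430a-3p as the divisor malat1 was 3.96-fold lower. The count of snRNAs called lower was 4 of 27 tested under TMM, 27 of 27 with miRNA totals, 20 of 171 without the filter and 7 of 27 with DESeq2. Without each library in turn it was 6 to 9, of 17 to 27 tested. The count of lincRNAs called lower was 14 of 125 tested. It became 28 of 1086 without the filter and 29 of 351 with more than 10 counts in 3 libraries. It was 8 of 125 with library totals, with miRNA totals or with all 4 tables. With piRNA cluster totals or TMM factors of the miRNA table it was 7 of 125. It was 9 of 124 without ENSDART00000151198.3 and without TMM, and 1 of 125 with snRNA totals. Without each library in turn it was 10 to 16, of 113 or 125 tested. dre-miR-135c-5p kept 1.06 without F1-C replicate 1 (adjusted p = 0.0719, edgeR), the only setting besides no filter that tested it. Deviations of same-numbered libraries correlated at -0.20 to -0.09, and those of differently numbered libraries at -0.20 to 0.24. With 3 libraries a group, these overlapping ranges cannot settle whether the replicate numbers pair the libraries. With the replicate block malat1 was at -2.06 (adjusted p = 0.00115, edgeR), with 14 lincRNAs lower and 5 higher, and dre-miR-430c-3p was called at 0.65 (adjusted p = 0.0294, edgeR). malat1 counts of 77 to 122 in F1-γ and 3 libraries a group limit the precision, and no exact test over libraries could go below 0.1.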
